A study of Mus musculus with 12 samples.

Results

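The cytosolic ribosome of mammals carries a fixed set of proteins, each encoded by a gene of its own. The genes described here were chosen by name and by a low read minimum: protein-coding genes whose mouse symbol follows the Rpl and Rps pattern, or is Rplp0, Rplp1, Rplp2 or Rpsa, with at least 10 counts in at least 3 libraries. Of the 55421 genes in the count table, 81 met the rule. They comprised 43 genes of the large subunit, 31 of the small subunit, the 3 stalk genes and 4 diverged copies of a core gene, Rpl7l1, Rpl22l1, Rpl39l and Rps27l. Among 89 symbols that fit the pattern, 6 were pseudogenes in the annotation. Another 2 were coding genes below the read minimum, namely Rpl10l with no count in any library and Rpl3l with at most 11. All 81 genes passed the filter on low counts and were tested.

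The counts came from microglia, the resident macrophages of the brain, enriched on a density gradient from dissociated mouse brains and prepared for sorting. They were subjected to oxygen-glucose deprivation (OGD), a model of ischaemia, and the labels do not say how the cells were kept during it. In KO-recovery and WT-recovery the 6 h of OGD were followed by 24 h of recovery. In KO-OGD and WT-OGD cells were taken after 6 h of OGD without recovery. KO cells had the genotype Slc2a5-/-::Cx3cr1EGFP, so they lacked Slc2a5, which encodes the fructose transporter GLUT5. WT cells had the genotype Cx3cr1EGFP, and the EGFP reporter at the microglial gene Cx3cr1 was therefore shared by all 4 groups. Each group held 3 libraries, all labelled male, from mice of postnatal days 35 to 40 in the sample labels and 30 to 45 in the extraction protocol. No group without OGD was analysed here. The labels do not say if the replicates of a group are different mice or different dishes. The p-values therefore measure the spread between these libraries, which may be technical. The KO is a deletion in the whole animal as far as the labels say, with no Cre or inducing agent named.

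Ribosomal protein genes are among the most strongly expressed genes of a dividing or growing cell. Their mRNAs typically begin with a run of pyrimidines, the 5′ terminal oligopyrimidine (TOP) sequence, through which the kinase mTOR and the RNA-binding protein LARP1 set how much of them is translated and stored. The small subunit reads the mRNA, the large subunit joins amino acids, and a flexible stalk on the large subunit recruits the elongation factors. Free ribosomal proteins, best known Rpl5 and Rpl11 bound to 5S ribosomal RNA, can bind the ubiquitin ligase MDM2 and stabilise p53. In a count of messenger RNA, none of these protein-level steps is seen.

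Sequences at the gene starts are shown because the TOP run, where present, lies there. Shown are the 15 bases before and the 15 from the RefSeq start (GRCm38.p6), with capitals marking any run of at least 7 pyrimidines (C or T). They belong to the 6 genes of lowest adjusted p in KO-recovery against KO-OGD that had an entry, in that order.
Rps10, chromosome 17, 27635230 to 27635259, minus strand: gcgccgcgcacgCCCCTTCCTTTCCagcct
Rpl13, chromosome 8, 123102335 to 123102364, plus strand: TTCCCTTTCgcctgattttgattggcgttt
Rpl27a, chromosome 7, 109519180 to 109519209, plus strand: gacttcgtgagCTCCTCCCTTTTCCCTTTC
Rps2, chromosome 17, 24720048 to 24720077, plus strand: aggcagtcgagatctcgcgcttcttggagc
Rpl5, chromosome 5, 107900513 to 107900542, plus strand: tctcacgtcgcttgcgtgctggtggtgcta
Rplp0, chromosome 5, 115559452 to 115559481, plus strand: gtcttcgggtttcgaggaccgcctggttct
A run of at least 7 pyrimidines lay in this window in 3 of the 6. In Rps10 and Rpl27a it spanned the start, while in Rpl13 it ended before the start and so lies outside the mRNA as annotated. RefSeq start windows were at hand for 61 of the 81 genes. Of these, 34 (55.7%) held such a run anywhere in the window, before the start included. The share was 21.3% among 27025 genes with an entry. The letters CGGAAG or CTTCCG, the core of the ETS family motif read on either strand, occurred in the 300 bases around the start (250 before, 50 after) of 42 of the 61 (68.9%), and in 18.8% of the 27025. RefSeq and GENCODE place some of these starts at different bases, so a missing run says only that the letters were not in this window.

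A second set of sequences shows how far apart a copy and its core gene are. Rpl39l and Rpl39 have coding sequences of 153 bases each and align without gaps, with 130 identical bases (85.0%) and 23 mismatches, which are in capitals. These are the coding sequences of the principal GENCODE transcripts, Rpl39l on chromosome 16 and Rpl39 on chromosome X.
Rpl39l: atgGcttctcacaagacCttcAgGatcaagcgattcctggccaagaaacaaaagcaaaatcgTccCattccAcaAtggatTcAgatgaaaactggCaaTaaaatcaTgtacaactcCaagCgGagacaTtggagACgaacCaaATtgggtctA
Rpl39: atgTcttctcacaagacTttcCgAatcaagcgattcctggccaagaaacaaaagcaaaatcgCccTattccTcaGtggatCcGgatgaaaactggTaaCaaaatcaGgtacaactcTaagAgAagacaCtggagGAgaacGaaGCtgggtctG
The other copies were further from their partners, with 76.2% identity between Rps27l and Rps27, 66.9% between Rpl22l1 and Rpl22 and 52.7% between Rpl7l1 and Rpl7. No stretch of 50 bases of the Rpl39l transcript recurred in the transcript of another gene. That is unusual among ribosomal protein genes, whose many processed pseudogenes repeat their sequence. For the median gene of the 81, 60% of the 50-base stretches recurred elsewhere, and for 52 of the 81 more than 50% did. Reads from such genes may be shared with copies, and 15 of the 81 also share exon bases with another coding gene, so these counts are uncertain. Rps10, Rpl5 and Rps28 are among those 15.

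Library totals were 9885259 to 45347118 counts, with the recovery libraries shallower, and 115617 to 695090 counts per library fell on the 81 genes. The share of mitochondrial counts was 4.20% to 18.4% and highest in WT-recovery replicate 1. That library's treatment field named OGD without recovery against its title, by which it was grouped. Slc2a5 had 17, 4 and 17 counts in KO-OGD, against 45, 40 and 58 in WT-OGD, and 0 to 2 in every recovery library, so it does not check the recovery labels. Xist, from the inactive X of female cells, had 4101 to 7139 counts in KO-recovery, 0 to 3 in WT-recovery, 7040 to 10232 in KO-OGD and 5111 to 7656 in WT-OGD. The Xist counts of KO-recovery, KO-OGD and WT-OGD go against their male label. Sex therefore cannot be told apart from genotype in KO-recovery against WT-recovery, nor from recovery in WT-recovery against WT-OGD, and the test of the genotype difference in recovery carries the same limit. All 10 microglial markers were detected in each group, at a sum of 4889 to 5527 CPM (counts normalized to the library size after TMM adjustment) in KO-recovery, 3723 to 5069 in WT-recovery, 2969.7 to 3247 in KO-OGD and 2690.0 to 2733 in WT-OGD.

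Levels differed widely between genes. The mean over all libraries was 6.42 to 618 CPM per kilobase of exon, with a median of 60.9 over the 81. Rplp1, a stalk gene, was highest at 618 CPM per kilobase, followed by Rps15, a protein of the small subunit head, at 603, and Rpl4, which lines the peptide exit tunnel, at 459.5. The lowest were Rpl35a, a large subunit protein, at 6.42, the copy Rpl39l at 6.65 and the copy Rpl22l1 at 8.01. The order depends on the length used: these lengths count all exons of a gene, and Rpl35a has 3526 bases of exon but a principal transcript of 491 bases. Per kilobase of that 1 transcript, Rpl35a was at 46.1 CPM and eighth from the lowest, Rpl39l was lowest at 10.04 CPM, and Rps15 was highest at 759.9 CPM.

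Summed over the 81 genes, ribosomal protein transcripts were lowest in KO-recovery. The sum was 10589.5, 12487 and 10734 CPM in KO-recovery replicates 1, 2 and 3, against 13200.0, 12986 and 13073 CPM in WT-recovery. It was 16454, 13640 and 15358 CPM in KO-OGD, against 13433, 13954 and 13752 CPM in WT-OGD. All 3 KO-recovery libraries thus lay below all 9 others. The means were 11270 ± 1056 CPM in KO-recovery, 13086 ± 108 CPM in WT-recovery, 15151 ± 1419 CPM in KO-OGD and 13713 ± 262 CPM in WT-OGD (SD, n = 3 each). On this CPM scale, the spread in both KO groups was several times that in the WT groups. The log2 difference of the mean sums was -0.22 in KO-recovery against WT-recovery, -0.43 in KO-recovery against KO-OGD and -0.07 in WT-recovery against WT-OGD. It was 0.14 in KO-OGD against WT-OGD. As a plain share of all counts the sum was 1.07% to 1.14% in KO-recovery, 1.17% to 1.40% in WT-recovery, 1.32% to 1.57% in KO-OGD and 1.40% to 1.46% in WT-OGD. The SD of this share was 0.034 percentage points in KO-recovery and 0.126 in WT-recovery, so the order of spread after recovery was reversed. After OGD it was 0.130 in KO-OGD and 0.033 in WT-OGD. In bulk samples, fewer cells of a type and less RNA per cell cannot be told apart. No p-value is given for the sum.

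Muscle and connective tissue transcripts differed within KO-recovery in the opposite direction to the ribosomal CPM sums. The 12 markers, none at 0 in any group, summed to 471 and 387 CPM in KO-recovery replicates 1 and 3, the libraries of low ribosomal sum, and to 29.6 CPM in replicate 2. They summed to 68.6 to 142 CPM in WT-recovery, 110.2 to 128 CPM in KO-OGD and 73.3 to 103 CPM in WT-OGD. Without KO-recovery replicates 1 and 3, the summed ribosomal level differed by -0.07 on the log2 scale in KO-recovery against WT-recovery. That value was taken in TMM-adjusted CPM only. As a plain share of counts, KO-recovery replicates 1, 2 and 3 had 1.07%, 1.14% and 1.11%, so replicate 2 stood out less on that scale. Astrocyte markers, 11 of 11 detected, summed to 55.2 to 89.2 CPM in KO-recovery, against 125 to 151 CPM in WT-recovery. Neuronal markers summed to 36.1 to 48.9 CPM in KO-recovery, against 102 to 138 CPM in WT-recovery, where Slc17a7 was at 0. Markers of monocytes and neutrophils summed to 684 to 858 CPM in KO-recovery, against 398 to 540.5 CPM in WT-recovery. Of those 10, only Ly6g was at 0 in KO-recovery, while 5 were at 0 in WT-recovery (Plac8, S100a9, Ly6g, Elane and Retnlg). Oligodendrocyte markers summed to 259 to 315 CPM in KO-recovery, against 323 to 367 CPM in WT-recovery. Border macrophage markers summed to 1297 to 1429 CPM in KO-recovery, against 917 to 1243 CPM in WT-recovery. The part of these other transcripts in the ribosomal result was not tested.

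**Figure D1:**
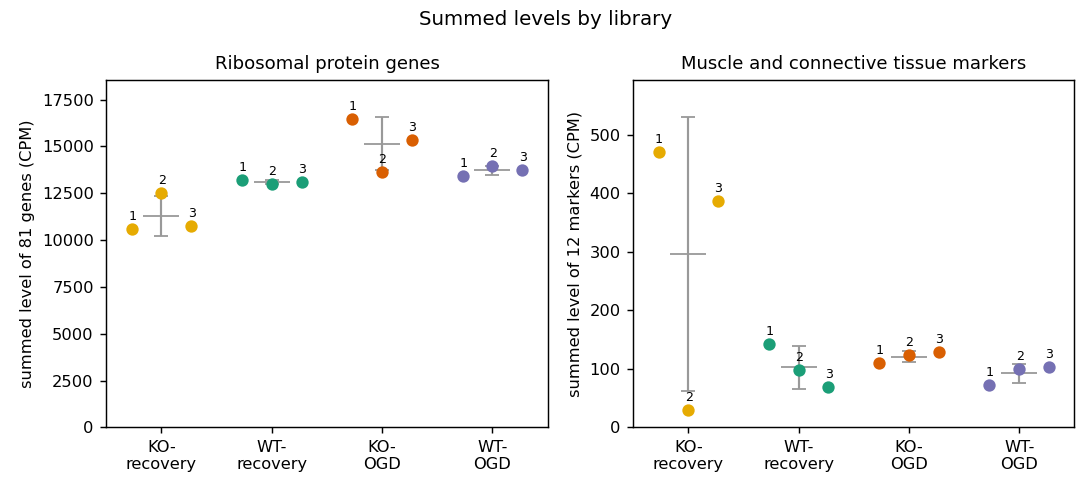
Summed level in CPM of the 81 ribosomal protein genes (left) and of 12 muscle and connective tissue markers (right) in each library; points are libraries numbered by replicate, bars are the mean ± SD of 3. KO-recovery replicates 1 and 3 have the lowest ribosomal sums (10589.5 and 10734 CPM) and the highest marker sums (471 and 387 CPM).

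After recovery, KO microglia had lower transcripts of many ribosomal protein genes than WT microglia. Of the 81, 32 were lower and 1 was higher in KO-recovery at an adjusted p below 0.05 (edgeR's quasi-likelihood test, Benjamini-Hochberg adjusted over 18842 genes), while 48 did not pass. Of all genes tested, 12% were called lower and 10.1% higher in this comparison. The median log2 fold change of the 81 was -0.23, against 0.01 for all genes. By subunit, 17 of 43 large subunit genes, 10 of 31 small subunit genes, all 3 stalk genes and 2 of 4 copies were lower. Libraries of the 2 groups did not overlap in 35 of the 81 genes with KO-recovery lower, and in 2 with KO-recovery higher, where 17.2% and 16.4% of all genes did so. The count of 32 became 17 without KO-recovery replicate 1, 21 without WT-recovery replicate 2 and 9 without KO-recovery replicates 1 and 3 together. The count of 1 higher gene became 2 without KO-OGD replicate 2 and 5 without both of those KO-recovery libraries.

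The small subunit gene Rps20 (chromosome 4, 3831334 to 3835665, GRCm38), whose protein sits in the head of the subunit and is ubiquitylated on collided ribosomes in human cells, had 109.9, 129.99 and 106 CPM in KO-recovery, against 185, 163 and 173 CPM in WT-recovery. Every KO-recovery library was below every WT-recovery library (log2 fold change -0.59, SE 0.10, adjusted p = 8.15e-04). Rps20 was called in all 24 alternative settings of this comparison. Rpl37a, a zinc-binding protein of the large subunit, had 52.2, 57.9 and 51.9 CPM in KO-recovery, against 81.6, 77.2 and 73.1 CPM in WT-recovery, again with no overlap (log2 fold change -0.52, SE 0.09, adjusted p = 8.28e-04). Rps28, a small protein near the mRNA exit site of the small subunit, had 40.4, 42.1 and 40.3 CPM in KO-recovery, against 60.5, 55.7 and 57.2 CPM in WT-recovery. These groups also lay apart (log2 fold change -0.50, SE 0.10, adjusted p = 0.00179). Rpl37a and Rps28 kept this call in the 24 settings.

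The stalk genes were lower together. Rplp0, the stalk base that anchors both acidic proteins, had 433, 485 and 484 CPM in KO-recovery, against 594, 635 and 634 CPM in WT-recovery, with no overlap between the groups (log2 fold change -0.41, SE 0.08, adjusted p = 0.00254). Rplp1 had 169, 235 and 215 CPM in KO-recovery, against 282, 329 and 229 CPM in WT-recovery. One WT-recovery library, replicate 3, lay within the KO-recovery range (log2 fold change -0.44, SE 0.14, adjusted p = 0.0348). Rplp2 had 51.5, 65.3 and 78.6 CPM in KO-recovery, against 134, 137 and 74.4 CPM in WT-recovery, and again WT-recovery replicate 3 was low (log2 fold change -0.82, SE 0.21, adjusted p = 0.0167). The Rplp1 call ended without any 1 of WT-OGD replicates 1, 2 and 3, KO-recovery replicate 1 and WT-recovery replicates 1 and 2. The Rplp2 call ended without any 1 of KO-recovery replicates 1 and 2 and WT-recovery replicates 1 and 2. The Rplp0 call held without each library in turn.

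**Figure D2:**
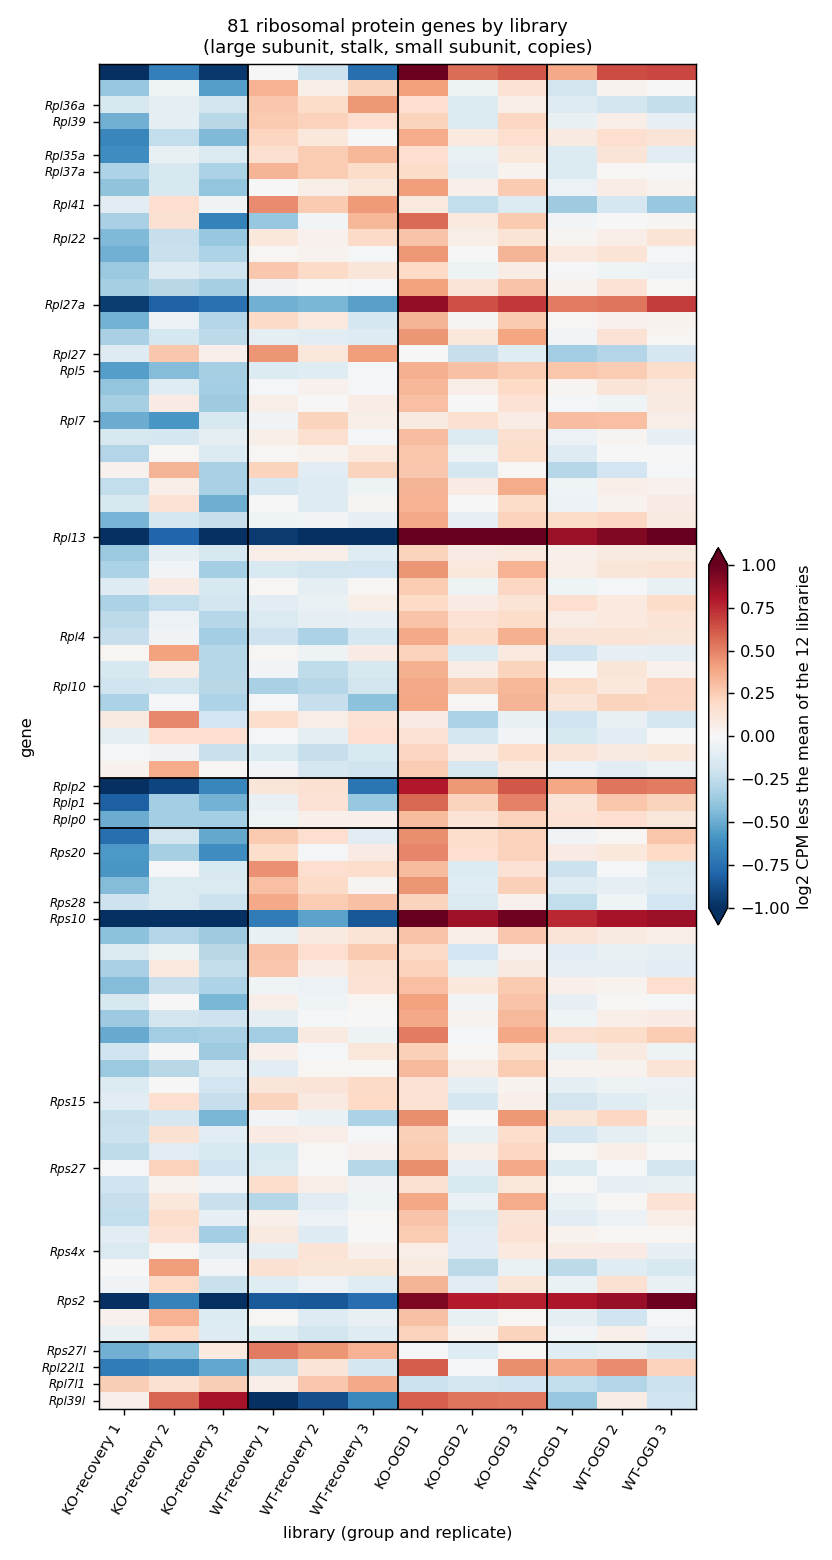
Level of each of the 81 genes (rows, in blocks of large subunit, stalk, small subunit and copies) in each of the 12 libraries (columns), as log2 CPM less the gene's mean over the libraries; colours end at -1 and 1, and row labels are given for the genes described in the text. KO-recovery replicates 1 and 3 are blue in most rows, while Rpl13, Rps10, Rps2 and Rpl27a separate all recovery from all OGD libraries.

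Among ribosomal protein genes, 55 of 81 fell with recovery in KO microglia. In KO-recovery against KO-OGD, 1 rose, Rpl7l1, and 25 did not pass. Of all genes tested, 29.6% fell and 29.3% rose. The median was -0.36, against 0.00 for all genes. The 55 comprised 34 of 43 large subunit genes, 17 of 31 small subunit genes, the 3 stalk genes and the copy Rpl22l1. Leaving out each library in turn gave 44 to 62 lower genes, and leaving out KO-recovery replicates 1 and 3 together gave 34. The single rise became 3 rises without KO-recovery replicate 3 and likewise 3 without both. Monocyte and neutrophil markers summed to 684 to 858 CPM in KO-recovery, against 25.8 to 30.0 CPM in KO-OGD, where Plac8, S100a9, Ly6g and Retnlg were at 0. Endothelial and mural markers summed to 128 to 139.9 CPM in KO-recovery, against 16.2 to 31.3 CPM in KO-OGD, where Cldn5 was at 0. Neuronal markers summed to 36.1 to 48.9 CPM in KO-recovery, against 9.83 to 17.97 CPM in KO-OGD. Oligodendrocyte markers summed to 259 to 315 CPM, against 154 to 159 CPM, and border macrophage markers to 1297 to 1429 CPM, against 803 to 907 CPM. Their part in the falls was not tested.

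WT microglia changed in both directions with recovery. In WT-recovery against WT-OGD, 16 of the 81 fell and 13 rose, and 52 did not pass, where 29.9% of all genes fell and 26.9% rose. The members' share was thus below that of all genes in either direction. The median was -0.04, against -0.03 for all genes, and its sign changed with the scaling. The falls were 11 large subunit genes, Rps2, Rps10, Rplp2, Rpl22l1 and Rpl39l. The rises were 5 large subunit genes, 6 small subunit genes, Rpl7l1 and Rps27l. Rises numbered 8 without WT-OGD replicate 1 or without WT-recovery replicate 1, and falls numbered 10 without WT-OGD replicate 2. Monocyte and neutrophil markers summed to 398 to 540.5 CPM in WT-recovery, against 22.9 to 32.8 CPM in WT-OGD. Endothelial and mural markers summed to 82.0 to 142 CPM in WT-recovery, against 26.7 to 49.7 CPM in WT-OGD, with Cldn5 and Kcnj8 at 0 in both. Neuronal markers summed to 102 to 138 CPM in WT-recovery, against 30.3 to 46.1 CPM in WT-OGD. Oligodendrocyte markers summed to 323 to 367 CPM, against 157 to 164 CPM, and border macrophage markers to 917 to 1243 CPM, against 789 to 816 CPM. Their part in these changes was not tested, and WT-recovery differs from WT-OGD in Xist as well as in recovery.

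Rpl13, Rps10 and Rps2 fell in both genotypes. These 2 comparisons have no library in common, and 15 genes fell in both, which is 27.3% of the 55 in KO and 93.8% of the 16 in WT. So 18.5% of the 81 fell in both, against 23.3% of all genes tested, for which the overlap was 78.7% of the genes falling in KO and 78.1% of those falling in WT. Rpl13 (large subunit; chromosome 8, 123102350 to 123105244) had 19.0, 28.0 and 22.3 CPM in KO-recovery, against 123, 101 and 105 CPM in KO-OGD. In WT it had 25.0, 24.0 and 22.0 CPM in WT-recovery, against 88.3, 92.0 and 102 CPM in WT-OGD. The fold changes were -2.26 (SE 0.12, adjusted p = 1.16e-09) in KO and -1.99 (SE 0.12, adjusted p = 5.84e-09) in WT, with wide gaps between recovery and OGD libraries. Rps10, a small subunit head protein marked by ubiquitin on stalled ribosomes, had 21.6, 23.6 and 23.0 CPM in KO-recovery, against 111, 88.3 and 96.7 CPM in KO-OGD. WT libraries had 30.3, 34 and 27.3 CPM in WT-recovery, against 82.8, 86.9 and 89.0 CPM in WT-OGD, giving -2.12 (SE 0.10, adjusted p = 3.10e-10) in KO and -1.50 (SE 0.10, adjusted p = 1.17e-08) in WT. Rps2, which lies at the mRNA entry of the small subunit, fell in each genotype. It had 69.7, 88.6 and 69.6 CPM in KO-recovery, against 270.3, 245 and 242 CPM in KO-OGD, and 78.9, 78.4 and 83.4 CPM in WT-recovery, against 247, 259 and 278 CPM in WT-OGD. These are log2 fold changes of -1.74 (SE 0.10, adjusted p = 1.66e-09) in KO and -1.70 (SE 0.10, adjusted p = 2.78e-09) in WT.

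Rpl27a and Rpl5, both of the large subunit, completed the 5 lowest adjusted p-values in KO. Rpl27a had 59.2, 65.2 and 67.9 CPM in KO-recovery, against 211, 178 and 187 CPM in KO-OGD (log2 fold change -1.58, SE 0.09, adjusted p = 1.40e-09), and 81.6, 83.2 and 78.2 CPM in WT-recovery, against 163, 166 and 185 CPM in WT-OGD (log2 fold change -1.08, SE 0.09, adjusted p = 8.79e-08). Rpl5, the 5S RNA partner that binds MDM2, had 86.2, 93.5 and 100.4 CPM in KO-recovery, against 162, 155 and 150.5 CPM in KO-OGD (log2 fold change -0.74, SE 0.08, adjusted p = 1.14e-06). In WT, Rpl5 had 115, 116 and 125 CPM in WT-recovery, against 154, 151 and 143 CPM in WT-OGD (log2 fold change -0.33, SE 0.08, adjusted p = 0.00216). In all these cases the recovery libraries lay below the OGD libraries. Rpl10, X-linked and the last protein to join the large subunit core, fell, with log2 fold changes of -0.54 in KO and -0.43 in WT (adjusted p = 1.53e-05 and 1.45e-04). All 3 stalk genes fell in KO, Rplp0 at -0.62, Rplp1 at -0.97 and Rplp2 at -1.55 on the log2 scale (adjusted p = 1.26e-05, 3.45e-05 and 6.03e-05). In WT only Rplp2 passed, at -0.58 (SE 0.21, adjusted p = 0.0319), and that call ended without any 1 of WT-OGD replicates 1, 2 and 3 and WT-recovery replicate 3. Rplp0 was at -0.12 (SE 0.08, adjusted p = 0.213) and Rplp1 at -0.30 (SE 0.14, adjusted p = 0.0845) in WT.

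The rises in WT were led by Rpl41, the shortest ribosomal protein with a coding length of 75 bases. It had 159.5, 138 and 155 CPM in WT-recovery, against 89.8, 102 and 88.3 CPM in WT-OGD, with no overlap (log2 fold change 0.69, SE 0.10, adjusted p = 4.93e-05). In KO it had 107, 129 and 112 CPM in KO-recovery, against 123, 96.8 and 105 CPM in KO-OGD, and these groups overlapped (log2 fold change 0.10, SE 0.10, adjusted p = 0.429). Rpl27, of the large subunit, had 38.5, 30.6 and 37.8 CPM in WT-recovery, against 22.2, 23.2 and 25.2 CPM in WT-OGD (log2 fold change 0.59, SE 0.11, adjusted p = 4.15e-04). In KO the difference was 0.18 (SE 0.11, adjusted p = 0.193). Rpl36a, X-linked, rose in WT, at 0.48 (SE 0.09, adjusted p = 3.98e-04) and Rps28 rose, at 0.47 (SE 0.09, adjusted p = 5.22e-04). Rps15, among the highest genes per kilobase, rose in WT, at 0.29 (SE 0.11, adjusted p = 0.0288). That call ended without any 1 of WT-OGD replicates 1 and 2 and WT-recovery replicates 1 and 3. Rpl35a, the lowest per kilobase of exon, fell in KO, at -0.34 (SE 0.13, adjusted p = 0.0306), a call that ended without any 1 of KO-OGD replicates 1 and 3 and KO-recovery replicate 1, and stood at 0.29 (SE 0.13, adjusted p = 0.0639) in WT.

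**Figure D3:**
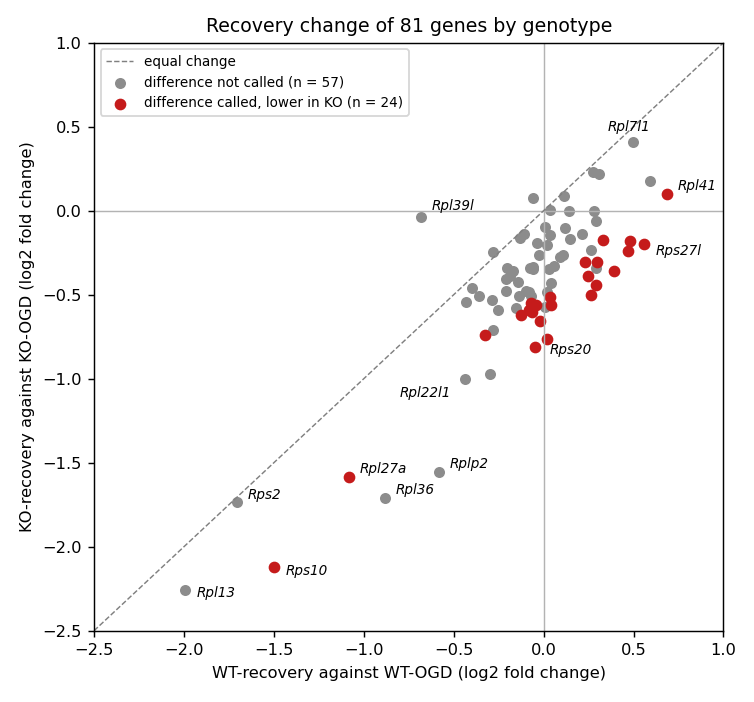
Log2 fold change with recovery of each of the 81 genes in WT (x axis) and KO (y axis), with the dashed line of equal change; red points are the 24 genes whose change differed between genotypes. Nearly all points lie below the line, 78 of 81, and Rpl39l is the farthest above it.

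The difference between the genotypes in the recovery change was tested itself, as an interaction, which is negative where KO responded to recovery with a lower change than WT. It was lower in KO for 24 of the 81 genes and higher for none, while 57 did not pass. Of all genes tested, 2.36% were called lower and 2.89% higher. No member was called higher by DESeq2 either, and 1 had an unadjusted p below 0.05 in that direction by each tool. The median of the 81 was -0.38, against 0.03 for all genes, and 78 of 81 estimates were negative. WT-recovery, the group without Xist, enters each of these estimates, and its part was not tested. The 24 comprised 13 large subunit genes, 9 small subunit genes, Rplp0 and Rps27l. The count moved strongly with single libraries: it was 7, 37 and 10 on leaving out KO-OGD replicates 1, 2 and 3, each alone. It was 9, 12 and 8 on leaving out WT-OGD replicates 1, 2 and 3 likewise, 7 without KO-recovery replicate 1 and 10 without WT-recovery replicate 2. Without KO-recovery replicates 1 and 3 together it was 4, with a median of -0.23. Library totals without scaling gave 5 and DESeq2 gave 37. Of the OGD libraries, KO-OGD replicate 2 held the lowest value of its group in 76 of the 81 genes, and replicate 1 the highest in 76.

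Rps20 had the lowest adjusted p of the interaction. It had 109.9, 129.99 and 106 CPM in KO-recovery, against 229.7, 184 and 192 CPM in KO-OGD, in KO, and 185, 163 and 173 CPM in WT-recovery, against 173, 176 and 188 CPM in WT-OGD, in WT. KO-recovery was thus the only group apart from the others, and the difference was -0.76 (SE 0.14, adjusted p = 0.00637). It was called in all 24 settings that could be fitted, the reported one included. For Rps28 the KO values were 40.4, 42.1 and 40.3 CPM in KO-recovery, against 54.4, 42.1 and 48.1 CPM in KO-OGD, and the WT values 60.5, 55.7 and 57.2 CPM in WT-recovery, against 39.3, 45.2 and 40.7 CPM in WT-OGD. WT rose, while KO fell with touching ranges, a fall whose call (adjusted p = 0.0386) ended without any 1 of KO-OGD replicates 1 and 3, WT-OGD replicates 1 and 3 and KO-recovery replicates 1 and 3, and the interaction was -0.71 (SE 0.13, adjusted p = 0.00661). Rpl36a had 29.5, 31.0 and 29.0 CPM in KO-recovery, against 37.0, 29.9 and 34.4 CPM in KO-OGD, and 39.7, 37.5 and 44.4 CPM in WT-recovery, against 30.1, 29.0 and 27.9 CPM in WT-OGD, giving -0.66 (SE 0.13, adjusted p = 0.00945). Rpl37a differed by -0.60 (SE 0.12, adjusted p = 0.0116), with falls in KO (-0.31) and rises in WT (0.30). Rps10 differed by -0.63 (SE 0.14, adjusted p = 0.0181), a call that ended without KO-recovery replicate 1 or without WT-recovery replicate 2. Rplp0 differed by -0.50 (SE 0.12, adjusted p = 0.0235), and this call ended without any 1 of KO-OGD replicates 1 and 3, WT-OGD replicates 1, 2 and 3, KO-recovery replicate 1 and WT-recovery replicates 2 and 3. Rpl13 and Rps2 did not pass, at -0.27 (SE 0.17, adjusted p = 0.407) and -0.03 (SE 0.14, adjusted p = 0.929).

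The interaction was lower in members with a shorter coding sequence. Across the 81 genes, the interaction and the coding length had a Spearman's rho of 0.54, a description only, since all genes share the same 12 libraries. In the 27 shortest (75 to 396 bases) the median interaction was -0.60 and 13 were called lower. In the middle 27 (399 to 564 bases) the median was -0.38 and 5 were called, and in the 27 longest (576 to 1257 bases) it was -0.23 and 6 were called. The relation was present in KO-recovery against WT-recovery (rho 0.41) and, in the opposite direction, in KO-OGD against WT-OGD (rho -0.45). In KO-recovery against KO-OGD rho was -0.02. The medians there were -0.389 in the 27 shortest, -0.345 in the middle 27 and -0.391 in the 27 longest. In WT-recovery against WT-OGD rho was -0.34, with medians of 0.036, 0.017 and -0.076 in the same order. The relation with length was thus seen in the WT change and not in the KO change. WT-recovery is the group without Xist, and its part in the relation was not tested. Using the exon length, which can be given for all genes, rho for the interaction was 0.30 in the 81 and 0.12 in 14223 protein-coding genes. GC content had a rho of 0.00 with the interaction, and the share of the transcript found in other genes 0.18.

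**Figure D4:**
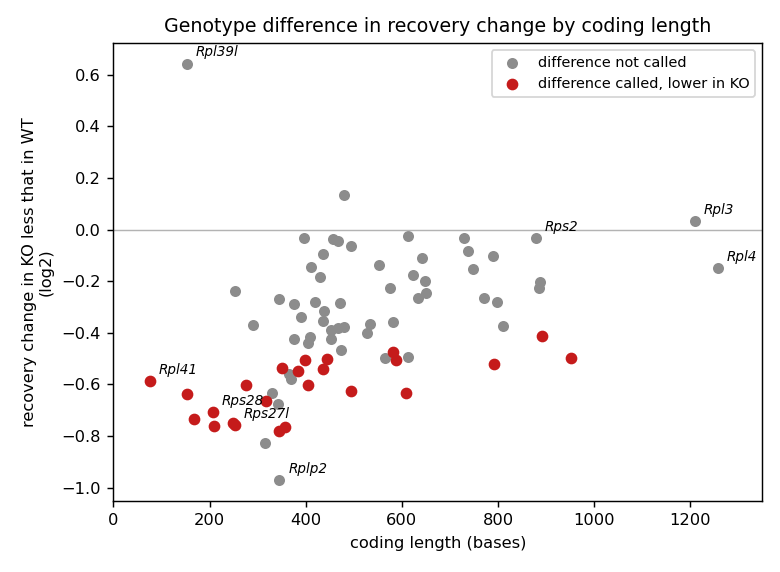
Interaction (log2 response to recovery in KO minus WT) against the coding length in bases for each of the 81 genes; red points are the 24 called genes. The 27 shortest genes have a median of -0.60 and the 27 longest a median of -0.23, with Rpl39l alone far above 0.

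Directly after OGD, few ribosomal protein genes passed the test between genotypes. In KO-OGD against WT-OGD, 1 of the 81 was called higher and none lower, where 0.966% of all genes were called higher and 6.52% lower. At an unadjusted p below 0.05, 12 were higher and none lower with edgeR, and 29 higher and none lower with DESeq2, which called 5 higher and none lower after adjustment. The median was 0.16, against -0.01 for all genes, and 77 of 81 estimates were positive. Under library totals without scaling the median was 0.03. The called gene was Rpl39l. Leaving out single libraries gave 0 calls for KO-OGD replicate 1 and for WT-OGD replicates 1 and 3, and 8 calls for KO-OGD replicate 2. Astrocyte markers summed to 38.0 to 61.8 CPM in KO-OGD, against 108 to 167 CPM in WT-OGD, and neuronal markers to 9.83 to 17.97 CPM in KO-OGD, against 30.3 to 46.1 CPM in WT-OGD. None of these markers was at 0, and their part in the result was not tested. Both KO and WT comparisons with recovery use these OGD libraries, so the positive median here and the negative interaction share them. Rps27, a zinc-finger protein of the small subunit, had the highest estimate among core genes, with 92.7, 63.6 and 87.3 CPM in KO-OGD, against 61.0, 66.4 and 59.2 CPM in WT-OGD, and did not pass (log2 fold change 0.39, SE 0.13, adjusted p = 0.109).

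The 4 copies went different ways. Rpl39l (chromosome 16, 10170226 to 10174911), whose product replaces Rpl39 in male germ cells of the mouse, was higher in KO in both states. After recovery it had 5.25, 7.59 and 8.99 CPM in KO-recovery, against 2.40, 2.75 and 3.25 CPM in WT-recovery, with counts of 106, 93 and 168 in KO-recovery, against 21, 45 and 44 in WT-recovery. The groups did not overlap (log2 fold change 1.36, SE 0.21, adjusted p = 4.16e-04), and the call held in all 24 alternative settings. After OGD it had 7.69, 7.36 and 7.30 CPM in KO-OGD, against 3.90, 5.34 and 4.43 CPM in WT-OGD, again without overlap (log2 fold change 0.71, SE 0.18, adjusted p = 0.0208). That call rested on KO-OGD replicate 1 and on WT-OGD replicates 1 and 3, since it ended without any 1 of them. It fell with recovery in WT (log2 fold change -0.68, SE 0.21, adjusted p = 0.0113), which ended without WT-OGD replicate 2, and stood at -0.04 (SE 0.18, adjusted p = 0.864) in KO. The interaction did not pass, at 0.64 (SE 0.28, adjusted p = 0.196). Its partner Rpl39, which lines the exit tunnel, went the other way after recovery, with 24.6, 32.0 and 28.3 CPM in KO-recovery, against 41.1, 40.2 and 38.6 CPM in WT-recovery and no overlap (log2 fold change -0.50, SE 0.11, adjusted p = 0.00551). The interaction of Rpl39 was -0.64 (SE 0.16, adjusted p = 0.029), a call that ended on leaving out any 1 of 8 libraries, KO-OGD replicates 1 and 3, WT-OGD replicates 1 and 3, KO-recovery replicate 1 and WT-recovery replicates 1, 2 and 3.

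Rps27l (chromosome 9, 66946086 to 66949516), a p53 target whose protein binds MDM2, was lower in KO after recovery. It had 44.1, 46.1 and 65.6 CPM in KO-recovery, against 87.8, 83.3 and 78.2 CPM in WT-recovery. KO-recovery replicate 3 lay nearest the WT libraries, without overlap (log2 fold change -0.67, SE 0.12, adjusted p = 0.00113). With recovery it rose in WT, at 0.56 (SE 0.12, adjusted p = 8.63e-04), where OGD libraries had 54.5 to 57.8 CPM, and stood at -0.20 (SE 0.12, adjusted p = 0.167) in KO. The interaction was -0.76 (SE 0.17, adjusted p = 0.017), lost without WT-OGD replicate 3. Its partner Rps27 had 66.2, 78.6 and 58.5 CPM in KO-recovery, against 60.9, 67.1 and 55.02 CPM in WT-recovery, with overlapping groups (log2 fold change 0.15, SE 0.14, adjusted p = 0.478). Nearly all of the Rps27 transcript (98.7% of 50-base stretches) recurs in other genes, so its level is uncertain.

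Rpl22l1 (chromosome 3, 28805436 to 28807424) is kept low by Rpl22 itself in mouse cells. It had 9.37, 9.72 and 10.7 CPM in KO-recovery, against 12.9, 16.7 and 13.5 CPM in WT-recovery, lower in every KO-recovery library (log2 fold change -0.55, SE 0.16, adjusted p = 0.0215), a call that ended without KO-recovery replicate 1 or WT-recovery replicate 2. It fell with recovery in KO, at -0.999 (SE 0.15, adjusted p = 3.66e-05) and in WT, at -0.44 (SE 0.15, adjusted p = 0.0184), the second call ending without WT-OGD replicate 2, WT-recovery replicate 1 or WT-recovery replicate 3. Rpl22 is an RNA-binding large subunit protein that mouse cells can live without, and its gene lies 2.21 Mb from Slc2a5 on chromosome 4 (152325742 to 152334071). It was the only 1 of the 81 within 10 Mb of Slc2a5. Rpl22 had 105, 121 and 109.9 CPM in KO-recovery, against 154, 147 and 163 CPM in WT-recovery, with no overlap (log2 fold change -0.46, SE 0.08, adjusted p = 0.00131). In OGD libraries it had 174, 148 and 157 CPM in KO-OGD, against 146, 149 and 157 CPM in WT-OGD, which overlapped (log2 fold change 0.08, SE 0.08, adjusted p = 0.682). The interaction was -0.55 (SE 0.12, adjusted p = 0.0154). Copy and partner were thus both lower in KO-recovery than in WT-recovery.

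Rpl7l1 (chromosome 17, 46773907 to 46782672), a relative of the yeast large subunit assembly factor Rlp7, was the gene that rose with recovery in both genotypes. It had 81.6, 76.4 and 81.6 CPM in KO-recovery, against 59.3, 61.2 and 59.95 CPM in KO-OGD, and 72.0, 82.9 and 89.6 CPM in WT-recovery, against 58.1, 56.2 and 59.5 CPM in WT-OGD. Recovery libraries lay above OGD libraries in each genotype, with 0.41 (SE 0.08, adjusted p = 4.43e-04) in KO and 0.49 (SE 0.08, adjusted p = 9.48e-05) in WT. Its genotype difference after recovery did not pass (log2 fold change -0.03, SE 0.08, adjusted p = 0.822). Rpl7, the core protein, had 144, 136 and 182 CPM in KO-recovery, against 199, 238 and 212 CPM in WT-recovery, with KO-recovery lower and no overlap (log2 fold change -0.49, SE 0.11, adjusted p = 0.00565), and fell with recovery in KO (log2 fold change -0.51, SE 0.11, adjusted p = 0.00104).

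**Figure D5:**
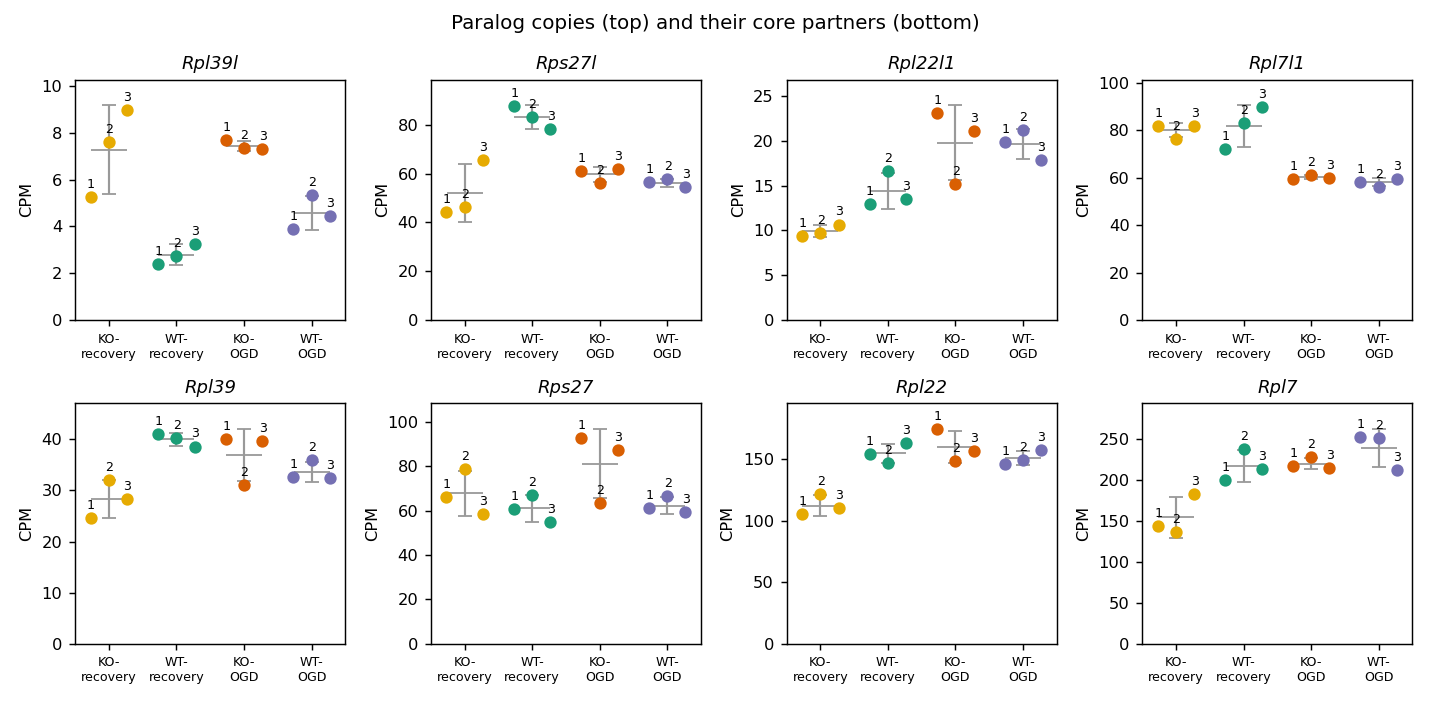
Level in CPM of the 4 copies (top row) and their core partners (bottom row) in each library; points are libraries numbered by replicate and grey bars the mean ± SD of 3 libraries. Rpl39l is higher in KO than in WT in both states, while Rps27l, Rpl22l1, Rpl39, Rpl22 and Rpl7 are lower in KO-recovery than in WT-recovery.

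Since Xist separated WT-recovery from the other groups, the 4 X-linked members are given together. Rpl36a had 29.5, 31.0 and 29.0 CPM in KO-recovery, against 39.7, 37.5 and 44.4 CPM in WT-recovery (log2 fold change -0.44, SE 0.09, adjusted p = 0.00391), and Rpl39, given with its copy, was lower in KO-recovery too. Rpl10 had 109.6, 111 and 103 CPM in KO-recovery, against 100.4, 103 and 110.4 CPM in WT-recovery, with overlapping groups (log2 fold change 0.04, SE 0.07, adjusted p = 0.714). Rps4x had 297, 330.1 and 307 CPM in KO-recovery, against 308, 362 and 341 CPM in WT-recovery, also overlapping (log2 fold change -0.11, SE 0.09, adjusted p = 0.404). So 2 of the 4 were lower in KO-recovery. The median over the 4 was -0.28, near that of all 81 (-0.23).

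In 16 of the 81 genes no comparison passed. In 24 members an annotated exon of some transcript overlaps a small nucleolar RNA. Of these, 7 were lower in KO-recovery than in WT-recovery and 5 had a lower interaction, against 25 and 19 of the 57 others. A small nucleolar RNA lying only in an intron was not counted, so the 57 may include hosts of that kind.

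Other genes whose mRNAs carry a TOP sequence were listed apart from the ribosomal proteins. For this and the lists that follow, the shares of all genes tested were 10.1% higher and 12% lower in KO-recovery against WT-recovery, and 2.89% higher and 2.36% lower for the interaction. They were 29.3% higher and 29.6% lower in KO-recovery against KO-OGD, and 26.9% higher and 29.9% lower in WT-recovery against WT-OGD. For KO-OGD against WT-OGD they were 0.966% higher and 6.52% lower. In KO-recovery against WT-recovery, 7 of 22 were lower and 2 higher, and for the interaction 5 were lower and none higher. Eef1b2, a subunit of the exchange factor of elongation factor 1, had 221 ± 17.2 CPM in KO-recovery, against 316 ± 6.80 CPM in WT-recovery (SD, n = 3 each), with an edgeR log2 fold change of -0.52 (adjusted p = 3.62e-04). Naca and Btf3, the partners of the nascent polypeptide-associated complex at the exit tunnel, were lower, with log2 fold changes of -0.48 (adjusted p = 7.04e-04) and -0.41 (adjusted p = 9.45e-04). Their interactions were -0.58 (adjusted p = 0.00811) for Eef1b2, -0.51 (adjusted p = 0.0158) for Naca, which was lost without WT-OGD replicate 1 or KO-recovery replicate 1, and -0.47 (adjusted p = 0.0145) for Btf3. With recovery, 14 of 22 fell and 1 rose in KO, and 12 fell and 3 rose in WT, with medians of -0.55 and -0.34. Eif3f, a subunit of initiation factor 3, fell, with log2 fold changes of -1.06 (adjusted p = 1.37e-08) in KO and -0.64 (adjusted p = 3.04e-06) in WT. Npm1, the nucleolar chaperone nucleophosmin, fell, with log2 fold changes of -0.96 (adjusted p = 1.32e-07) and -0.85 (adjusted p = 6.08e-07). None of the 22 was called in KO-OGD against WT-OGD with edgeR.

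A further 7 ribosomal genes and copies are not among the 81. They include the processed pseudogene Rps3a3, whose symbol fits the pattern but which is not protein-coding. Among them, Fau, which makes Rps30 fused to a ubiquitin-like protein, was called lower in KO-recovery, with 107 ± 18.4 CPM in KO-recovery, against 153 ± 19.7 CPM in WT-recovery (SD, n = 3 each), with an edgeR log2 fold change of -0.51 (adjusted p = 0.00799). Rack1, the small subunit scaffold, fell with recovery in KO, at -0.34 (adjusted p = 0.00167) and stood at -0.13 (adjusted p = 0.176) in WT. No gene of the 7 was called for the interaction, and 3 fell and none rose in KO-recovery against KO-OGD, while 1 rose in WT-recovery against WT-OGD.

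Among genes that build ribosomes, more were higher than lower in KO-recovery. Of 58 biogenesis factors, 12 were higher and 1 lower in KO-recovery against WT-recovery, with a median of 0.08 beside 0.01 for all genes, and 1 was higher and none lower for the interaction. Nop56, a core protein of the box C/D particles that guide rRNA methylation, had 65.6 ± 7.16 CPM in KO-recovery, against 42.0 ± 3.34 CPM in WT-recovery (SD, n = 3 each), with an edgeR log2 fold change of 0.65 (adjusted p = 2.07e-04). Its interaction was 0.51 (adjusted p = 0.0304) and was lost on leaving out any 1 of KO-OGD replicates 1 and 3, WT-OGD replicates 1, 2 and 3, KO-recovery replicates 1 and 2 and WT-recovery replicates 2 and 3. Tcof1, the treacle protein of rRNA transcription, was higher at a log2 fold change of 0.59 (adjusted p = 0.00127), and Ddx27, a nucleolar helicase, at 0.46 (adjusted p = 8.30e-04). Bysl, a small subunit assembly factor, was the 1 lower in KO-recovery, at -0.43 (adjusted p = 0.00151). With recovery, 27 of 58 fell and 13 rose in KO, and 29 fell and 10 rose in WT. Ncl, the nucleolar protein nucleolin, fell, with log2 fold changes of -1.08 (adjusted p = 7.97e-08) and -1.14 (adjusted p = 5.54e-08), and Bysl rose, with log2 fold changes of 1.201 (adjusted p = 1.13e-08) and 1.60 (adjusted p = 8.43e-10). After OGD, Nop2 was the 1 called of 58, higher in KO at 0.29 (adjusted p = 0.0371), a call lost without KO-OGD replicates 1 or 2, WT-OGD replicates 1, 2 or 3, or WT-recovery replicate 3.

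The remaining lists lie further from the ribosome. Of 15 RNA polymerase I genes, 2 were higher and 1 lower in KO-recovery against WT-recovery, and none was called for the interaction. The calls of Ttf1 and Polr1c (higher) ended on leaving out any 1 of 4 and 5 libraries. That of Znrd1 (lower) ended on leaving out any 1 of 7. Of 12 tested non-coding hosts of small nucleolar RNAs, 1 was higher and none lower, with none called for the interaction. Of 27 initiation factors, 3 were higher and 4 lower, shares near those of all genes, with none called for the interaction. Eif5 and Eif3c fell with recovery in both genotypes, Eif5 at -1.63 (adjusted p = 8.75e-10) in KO and -1.70 (adjusted p = 8.62e-10) in WT, and Eif3c at -1.46 (adjusted p = 2.55e-09) and -1.58 (adjusted p = 1.60e-09). Of 20 genes of mTOR and TOP control, 4 were higher and 2 lower in KO-recovery. Tsc1 and Mtor, an inhibitor and the kinase itself, were higher, with log2 fold changes of 0.58 (adjusted p = 1.82e-04) and 0.39 (adjusted p = 0.00304). For the interaction 1 of the 20 was higher and 2 were lower, with Tsc1 at 0.47 (adjusted p = 0.0235), Myc at -0.47 (adjusted p = 0.0308) and Ddit4 at -0.97 (adjusted p = 0.0327). Each of these 3 calls ended without several single libraries, KO-OGD replicates 1 and 3 and KO-recovery replicate 1 among them. Of 8 genes of the p53 checkpoint, 2 were higher and 1 lower in KO-recovery. Cdkn1a, a p53 target that stops the cell cycle, was higher at 0.33 (adjusted p = 0.032), a call that ended without any 1 of KO-recovery replicates 1 and 2 and WT-recovery replicates 2 and 3. Mdm4, an MDM2 partner that restrains p53, was higher at a log2 fold change of 0.43 (adjusted p = 0.00391), and Cdkn2a, which encodes the p53 activator ARF, was lower at -1.11 (adjusted p = 4.26e-04). The interaction was 0.63 (adjusted p = 0.0108) for Mdm4 and -1.36 (adjusted p = 0.00327) for Cdkn2a. Of 25 cell division genes, 22 were lower in KO-OGD against WT-OGD, and 25 rose in KO and 14 in WT with recovery, and 19 had a higher interaction.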

How the data were processed

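The table deposited by the authors holds whole-number read counts for each gene, without normalization. The submitters' processing notes name HISAT2 and featureCounts as tools, and GRCm38 as the genome build. Tool versions and counting options (strand, multiple matches) are not given in the sources used here. Per the labels, libraries were made with a stranded total RNA kit, although the molecule field named polyA RNA. Identifiers were matched to GENCODE M21 for symbols, and 55240 of 55421 matched without the version number. Counts were fitted with edgeR 4.0.16 in R 4.3.3 (filterByExpr, TMM, glmQLFit with robust dispersions, 1 mean per group, all 12 libraries, no covariate), which kept 18842 genes. A gene was called at a Benjamini-Hochberg adjusted p below 0.05 over all of them. Standard errors were derived as |log2 fold change| over the square root of F. The script was tested on simulated data. Replicate pairs differed by a chi-square of 6.66 to 60.2 per degree of freedom, so no pair agreed within counting noise. Precision is set by 3 libraries per group.

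Named genes were the 5 members of lowest adjusted p per comparison and direction, copies with their partners, stalk genes, X-linked members, those within 10 Mb of Slc2a5, and the 3 highest and lowest per kilobase. Of each other list up to 4 genes per comparison were eligible by lowest adjusted p. Members and lists were chosen with earlier results of these data known. Alternatives were 25 planned settings (other scalings and denominators, TMM without the ribosomal genes, DESeq2 1.42.0, no low-count filter, thinned counts, the 6 libraries compared, a replicate block, libraries left out, pseudogene counts added to their parent) and 1 chosen after seeing the data. Protein sequences were not used here, and values of some single genes are not reported here.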

Additional observations from a re-analysis of the deposited data

Results flagged for a closer look

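The change with recovery differed between KO and WT by a test of the difference itself (edgeR interaction, adjusted p below 0.05) in 24 ribosomal protein genes, all with the lower change in KO. The values are the log2 change in KO less that in WT. Among small subunit genes they were -0.78 for Rps26, -0.76 for Rps20, -0.75 for Rps21, -0.73 for Rps29, -0.71 for Rps28, -0.63 for Rps10, -0.52 for Rps3a1, -0.51 for Rps24 and -0.47 for Rps7. Among large subunit genes they were -0.76 for Rpl38, -0.66 for Rpl36a, -0.64 for Rpl39, -0.63 for Rpl13a, -0.60 for Rpl37a, -0.60 for Rpl32, -0.59 for Rpl41, -0.55 for Rpl22 and -0.54 for Rpl26. Further down were -0.53 for Rpl34, -0.51 for Rpl19, -0.50 for Rpl27a and -0.41 for Rpl5. The Rpl27a call ended on leaving out any 1 of 6 libraries, and the Rpl5 call on leaving out any 1 of 9. The stalk gene Rplp0 had -0.50, and the copy Rps27l had -0.76. Groups of 3 libraries were too small for a statistical test of single outlying samples. Leaving out each library in turn moved the count of 24 to between 7 and 37.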

How the results depend on the processing

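No called value of a named gene changed sign in any setting. Same-numbered libraries had correlations of -0.115 to 0.156 in their deviations from the group means. These values gave no sign that replicate numbers pair the samples, but with 3 libraries per group they cannot settle it. With a replicate block, 10 members were lower in the interaction, against 24 without it, and the block moved no other count of members by over 1.5 times. Other settings that moved the interaction count of 24 were library totals without scaling (5), counts thinned to equal depth (7), DESeq2 (37) and leaving out KO-recovery replicates 1 and 3 together (4), a setting chosen after seeing the data. That last setting also gave 9 lower and 5 higher in KO-recovery against WT-recovery, 34 lower and 3 higher in KO-recovery against KO-OGD, and a summed level of -0.0677 in KO-recovery against WT-recovery; the lone library left is assumed to vary like the other groups. In KO-OGD against WT-OGD the 1 higher gene became 2 with DESeq2 size factors in edgeR or without the 2 libraries of highest mitochondrial share, 0 with library totals or thinned counts, and 5 with no low-count filter or with DESeq2. In KO-recovery against KO-OGD, upper-quartile scaling gave 2 higher. In WT-recovery against WT-OGD, library totals gave 8 higher, the 6 libraries compared alone gave 22 higher, and upper-quartile scaling gave 10 lower. The summed level in that comparison, -0.07 in log2, was -0.0243 with DESeq2 size factors, 0.0163 with upper-quartile scaling, -0.13 with library totals and -0.13 against protein-coding counts. The cause was not tested in these cases, apart from fewer libraries or counts where a setting removes them.

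Leaving out each library in turn gave 0 to 8 higher and 0 to 0 lower in KO-OGD against WT-OGD, 1 to 2 higher and 17 to 37 lower in KO-recovery against WT-recovery, and 1 to 3 higher and 44 to 62 lower in KO-recovery against KO-OGD. It gave 8 to 16 higher and 10 to 17 lower in WT-recovery against WT-OGD, and 0 to 0 higher and 7 to 37 lower for the interaction. The summed level ran from 0.08 to 0.21, from -0.30 to -0.17, from -0.51 to -0.36, from -0.08 to -0.05 and from -0.44 to -0.30 in the same order of comparisons. Over all settings, the median of the 81 genes ran from 0.03 to 0.26, from -0.32 to -0.10, from -0.49 to -0.25, from -0.10 to 0.04 and from -0.47 to -0.23. Depth differed between groups. With counts thinned to equal depth, the interaction calls of Rps28, Rpl36a, Rpl37a, Rps10, Rpl39, Rplp0, Rpl5 and Rpl27a ended. Those of Rps20, Rpl22, Rpl41 and Rps27l held. At full depth, however, the Rpl41 interaction call ended on leaving out any 1 of 7 libraries. These were KO-OGD replicates 1 and 3, WT-OGD replicates 1 and 3, KO-recovery replicate 1 and WT-recovery replicates 1 and 3. In the other lists, the interaction calls of Naca, Btf3, Nop56, Tsc1, Myc, Ddit4 and Cdkn2a ended. Rpl39l stayed called in KO-recovery against WT-recovery. Its calls in KO-OGD against WT-OGD and in WT-recovery against WT-OGD ended. Rpl22l1, Rpl27a and Rpl36a were among those no longer called in KO-recovery against WT-recovery.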
